A study of Homo sapiens with 36 samples.

Results

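The genes followed here were 32 established transcriptional targets of the tumour suppressor p53. Of them, 30 had a probe set that the platform annotation gives to their symbol alone, out of 19775 genes with such a probe set. Each gene was read from 1 probe set, that of greatest average signal across the 36 arrays, and a set whose name ends in _x_at, a type that can cross-hybridise, was used only where there was no other. No expression value of BTG2 or FDXR was analysed here. SPATA18 and GDF15 stayed at or under a log2 signal of 4 on every array by this rule, and PIDD1 did so on all 18 Ota arrays. A gene was tested where at least 3 arrays of a compound lay over log2 4, which left 28 members in the Aa tests, among 10972 genes, and 27 in the Ota tests, among 11029. PIDD1 passed in Aa only through treated arrays and had to differ there, so no p against vehicle is given for it, and each count of members called higher with high-dose Aa, or with low-dose Aa at 48 h, includes it.

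HK-2 is an immortalised line of human renal proximal tubule epithelium, grown here in EGF-containing medium. Cells were given Aa at a high dose (3 arrays), a low dose (3) or vehicle (3) for 24 h, and the same 3 conditions were repeated for 48 h. Ota was given in the same way at a high dose, a low dose or vehicle (3 arrays each), for 24 h and for 72 h. The low and high dose of a compound at 1 time share their vehicle arrays, and the labels call the 3 arrays of each of the 12 groups biological replicates. The labels give neither the doses nor the full compound names, and every title ends in Tox3, a term they do not explain. As background, the line was immortalised with papillomavirus E6 and E7, and E6 directs p53 to degradation, so that the p53 protein is not expected to behave here as in a normal tubule cell.

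p53 is a transcription factor that accumulates when DNA damage or other stress blocks its destruction by the ubiquitin ligase MDM2. It then binds paired short DNA elements near its targets and raises genes that stop the cell cycle, repair DNA, adjust metabolism or start cell death, and it also raises MDM2, which closes a negative feedback loop. Many of these targets are reached by other stress factors too, among them ATF4 and NF-kB.

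The 10-base p53 recognition element, named here without its letters because they are degenerate, was sought as a shared sequence feature of the promoters. It is a palindromic consensus, so a match reads on both strands. In RefSeq promoter windows (GRCh38.p14, 250 bases before to 50 after a start site), 26 of the 32 listed members were found, and 8 of these 26 genes (30.8%) held the element, against 2202 of all 27305 genes (8.06%). They were AEN, EI24, FAS, FDXR, PLK2, RAP2B, RPS27L and SESN1. No member window held 2 elements side by side, an arrangement found in 10 genes of the whole table. The 5 stretches that follow were picked by the values of their genes below, and a link between the element and a change was not tested. EI24 rose by small amounts under each high dose and AEN rose in 3 of 4. FAS and RAP2B fell with Ota at 24 h, and SESN1 turned round with time in Aa. Capitals mark the element, and each stretch is given 5′ to 3′ on the strand of its gene.
EI24, plus strand, chr11:125569442-125569476: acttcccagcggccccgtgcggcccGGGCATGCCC
AEN, plus strand, chr15:88621281-88621339: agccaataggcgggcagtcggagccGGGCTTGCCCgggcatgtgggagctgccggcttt
FAS, plus strand, chr10:88991284-88991343: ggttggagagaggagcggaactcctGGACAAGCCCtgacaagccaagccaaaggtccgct
RAP2B, plus strand, chr3:153162140-153162199: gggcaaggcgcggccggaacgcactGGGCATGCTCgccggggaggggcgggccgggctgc
SESN1, minus strand, chr6:109009003-109009062: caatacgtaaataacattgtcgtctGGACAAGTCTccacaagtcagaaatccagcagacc
A match is a description of these letters and not evidence of binding.

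The values are log2 GCRMA signals as deposited, and levels of different genes are not compared. Pearson correlation between arrays of a group was 0.9503 to 0.9936 over the genes tested. Ota at the high dose set its arrays apart: the median signal over tested genes was 7.64 ± 0.16 at 24 h and 7.95 ± 0.05 at 72 h, against 8.28 ± 0.06 and 8.28 ± 0.02 in the matching vehicle groups (SD, n = 3). Over all probe sets the array medians lay between 2.88 and 3.13. These medians do not measure RNA per cell, and the part of the scaling of the arrays in the lower ones was not tested. For a gene that falls, less of its RNA per cell and fewer cells of a kind cannot be told apart in such bulk samples. Of 14 proximal tubule markers with a probe set, 5 (SLC3A1, KRT8, KRT18, CDH2, CDH6) were over log2 4 on all 12 vehicle arrays and 9, among them the defining LRP2, CUBN, SLC34A1 and AQP1, were at or under it on all of them. Distal nephron, endothelial and leukocyte markers were over it for 0 of 4 genes each, and the fibroblast genes COL1A1, DCN and LUM for 3 of 4. The log2 of the summed level of the 4 fibroblast genes was 10.65 to 11.23 with low-dose and 10.28 to 10.94 with high-dose Ota at 72 h, against 9.53 to 9.88 with vehicle, groups that did not overlap. It was 11.22 to 11.63 with low-dose and 10.98 to 11.61 with high-dose Aa at 24 h, against 11.63 to 12.04. The part of these genes in the results was not tested.

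The p53 targets did not move as a block in any condition. With high-dose Aa at 24 h, 11 of 28 were called higher and 7 lower (limma, Benjamini-Hochberg adjusted p under 0.05), where 27.4% of all genes tested were called higher and 24% lower. High-dose Aa at 48 h gave 9 higher and 11 lower of 28, beside 30.9% and 35.1% of all genes. High-dose Ota at 24 h gave 6 higher and 15 lower of 27, beside 21.6% and 42.4%, and at 72 h it gave 8 higher and 9 lower, beside 26.3% and 37%. As shares, the members called higher were 39.3%, 32.1%, 22.2% and 29.6% in these 4 comparisons. They lay near the share of all genes in 3 of them and above it with Aa at 24 h. The Aa shares include PIDD1, which had to differ, so part of the gap at 24 h was set by the filter.

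Low doses called fewer genes. Low-dose Aa gave 3 higher and 6 lower of 28 at 24 h, beside 11.6% and 13.5% of all genes, and 7 higher and 3 lower at 48 h, beside 18.8% and 19.1%. Low-dose Ota gave 1 higher and 3 lower of 27 at 24 h, beside 4.66% and 10%, and 2 higher and 1 lower at 72 h, beside 9.79% and 7.28%. With replicate number as a block, the members called with Aa were 12 at the low dose and 20 at the high dose at 24 h, against 9 and 18 without, and 14 and 22 at 48 h, against 10 and 20. The block raised calls over the whole array too. At 24 h all genes went from 1277 higher and 1476 lower to 2009 and 2314 at the low dose. At the high dose they went from 3002 and 2629 to 3656 and 3276. At 48 h they went from 2064 and 2094 to 2945 and 2894 at the low dose, and from 3393 and 3847 to 3884 and 4274 at the high dose. The counts at the low dose of Ota rest on few arrays: they ranged from 1 to 3 at 24 h and from 1 to 2 at 72 h when 1 array was left out. The median change of the members tested lay between -0.02 and 0.15 log2 in 3 of the high-dose comparisons and was -0.88 for Ota at 24 h, where the median of all genes tested was -0.26.

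**Figure D1:**
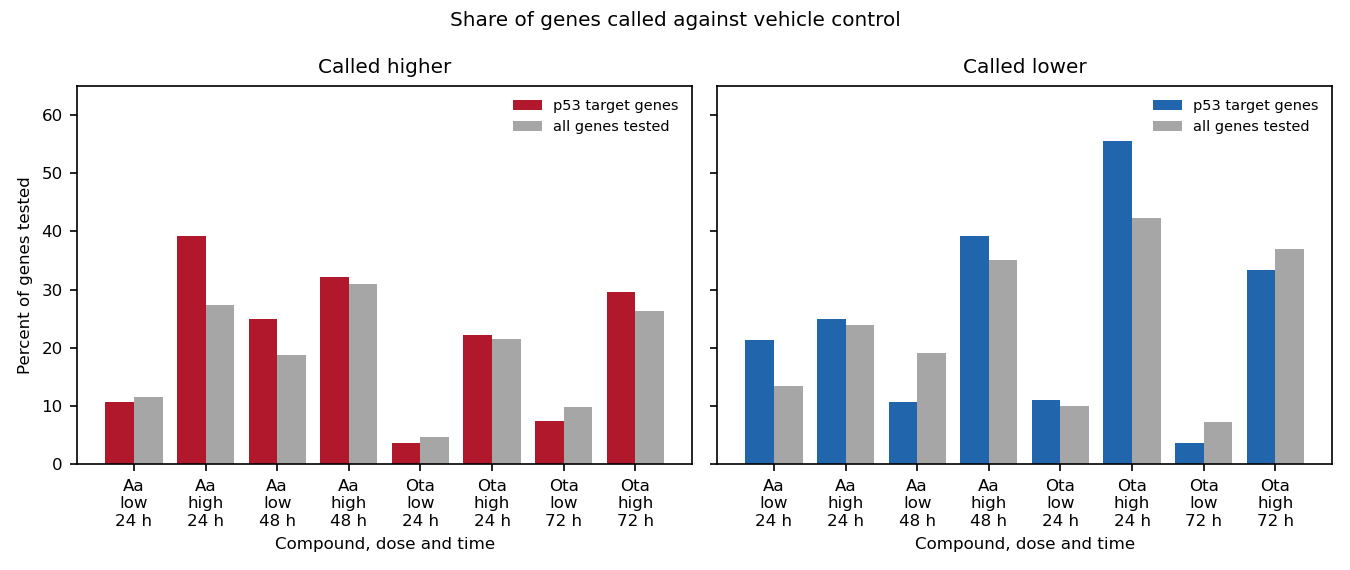
Percent of genes called higher (left) and lower (right) against vehicle in each of the 8 dose comparisons, for the p53 targets (coloured bars) and for all genes tested (grey bars). The widest gaps above the grey bars are the 39.3% called higher with high-dose Aa at 24 h and the 55.6% called lower with high-dose Ota at 24 h. The bars called higher with high-dose Aa, and with low-dose Aa at 48 h, include PIDD1, which had to differ.

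The split for Ota depends on the scaling of the arrays. With quantile normalisation 11 members were higher and 12 lower at 24 h, and with arrays shifted to a common median 12 and 9, against 6 and 15 as deposited. The median change of all genes moved with it, to 0.15 and 0.44 log2 against -0.26, and the genes called over the whole array went to 4302 higher and 3372 lower, or 5577 and 2874, against 2379 and 4679. At 72 h the members split 9 to 8 and 13 to 9, against 8 to 9. The shares of all genes there were 36.3% and 29.8%, and 40.7% and 26.9%, against 26.3% and 37%.

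Across the 4 high-dose comparisons, CDKN1A, EI24 and LIF were called higher in each. ZMAT3, CCNG1 and CCNG2 were called lower in each. TRIAP1 was called higher at both times of Aa and lower at both times of Ota, and 9 members were called in both directions somewhere. No tested member was without a call. How many of all genes met these patterns was not counted. Of all genes, 27.4%, 30.9%, 21.6% and 26.3% were called higher in the 4 comparisons, and 24%, 35.1%, 42.4% and 37% lower. The counts are thus not read as a trait of the members.

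**Figure D2:**
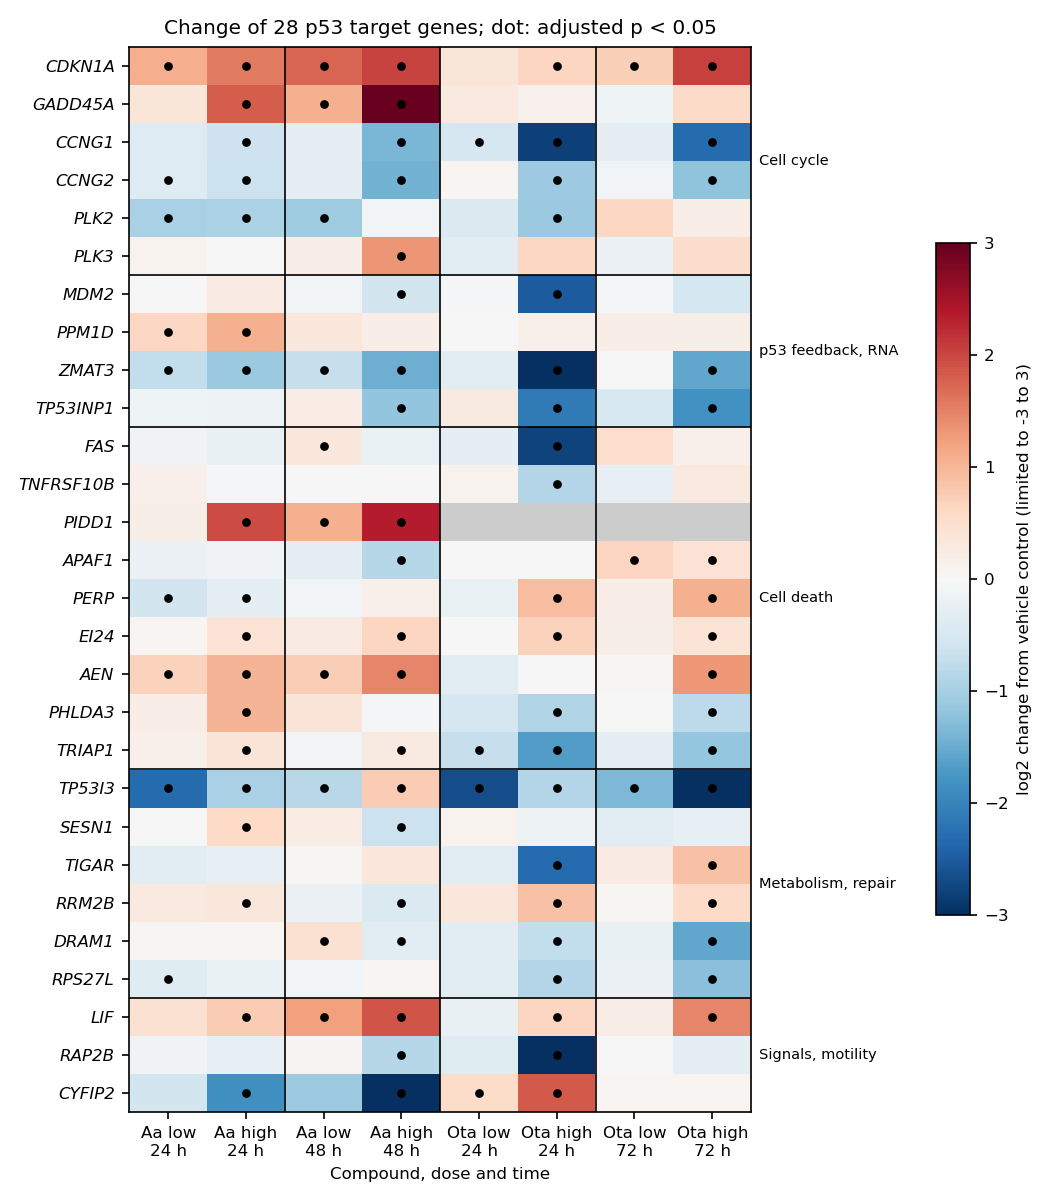
log2 change from vehicle (colour, limited to -3 to 3) of the 28 tested p53 targets, by role, in the 8 dose comparisons (columns, low before high dose). Dots mark an adjusted p under 0.05 and grey marks PIDD1, not tested in Ota. The Aa dots of PIDD1 are not test results, since it passed the filter only through treated arrays. CDKN1A is red throughout its high-dose columns, ZMAT3 and CCNG1 are blue, and most other rows change colour between columns.

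Among the 6 cell cycle regulators, CDKN1A, which encodes the cyclin-dependent kinase inhibitor p21, was the most uniform riser. Its log2 signal on high-dose Aa arrays at 24 h was 10.94, 10.74 and 10.80, against 9.12, 9.40 and 9.26 with vehicle, a change of 1.57 ± 0.19 (SE; adjusted p = 8.1e-06), or 2.96-fold. At 48 h it read 11.11, 10.93 and 11.15 with high-dose Aa, against 9.11, 8.58 and 9.45, a change of 2.02 ± 0.19 (adjusted p = 3.2e-07). Every treated array lay above every vehicle array at both times. High-dose Ota arrays read 9.17, 8.88 and 9.44 at 24 h, against 8.79, 8.21 and 8.53 with vehicle, which is a smaller change of 0.65 ± 0.20 (adjusted p = 0.00844) that grew to 1.00 and 1.32 under the other scalings. By 72 h the high-dose Ota arrays stood at 10.97, 10.83 and 11.47, against 9.05, 9.01 and 9.04, a change of 2.05 ± 0.20 (adjusted p = 2.4e-07). Low doses also raised it, by 1.09 ± 0.19 with Aa at 24 h (adjusted p = 7.3e-04), 1.75 ± 0.19 with Aa at 48 h (9.3e-06) and 0.72 ± 0.20 with Ota at 72 h (0.0185). That last call was lost without any of 5 arrays, vehicle replicates 1, 2 and 3 and low-dose replicates 2 and 3 (adjusted p 0.0507 to 0.089). With low-dose Ota at 24 h the change of 0.36 ± 0.20 was not called.

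GADD45A, whose product binds PCNA and p21 and takes part in growth arrest and repair, rose with Aa. Its arrays read 10.71, 10.84 and 10.91 with high-dose Aa at 24 h, against 8.98, 8.96 and 9.09 with vehicle, a change of 1.81 ± 0.20 (adjusted p = 3.0e-06). At 48 h the 3 high-dose arrays lay between 11.97 and 12.76, against 9.11, 9.23 and 9.24, the largest rise of any member in any comparison with vehicle at 3.05 ± 0.20 (adjusted p = 1.1e-08), or 8.29-fold. Low-dose Aa raised it by 1.07 ± 0.20 at 48 h (adjusted p = 6.8e-04). Under high-dose Ota it read 8.49, 8.18 and 9.15 at 24 h, against 8.34, 8.08 and 9.02, and 10.95, 10.11 and 11.49 at 72 h, against 10.20, 10.10 and 10.50. The Ota groups overlapped, and neither change was called as deposited (0.12 ± 0.35 and 0.58 ± 0.35). With a common median both were called higher (0.80, adjusted p = 0.0415, and 0.92, 0.0236), and the second also without high-dose replicate 2 (0.95, 0.0279). The change at 72 h was called higher with replicate number as a block too (0.58, adjusted p = 0.0166). Its vehicle level itself was higher at 72 h than at 24 h in the Ota series, by 1.79 ± 0.35 (adjusted p = 0.00128).

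CCNG1 encodes cyclin G1, which recruits a phosphatase to MDM2. It fell in all 4 high-dose comparisons. High-dose Ota arrays read 9.86, 9.68 and 10.07 at 24 h, against 12.70, 12.55 and 12.79 with vehicle, a change of -2.81 ± 0.13 (adjusted p = 1.1e-10), and 10.78, 10.75 and 10.81 at 72 h, against 12.94, 13.21 and 13.10 (-2.30 ± 0.13, adjusted p = 9.2e-10). No array of the groups overlapped, and both calls held under all 3 scalings. With high-dose Aa it read 12.07, 12.11 and 11.74 at 24 h, against 12.70, 12.65 and 12.44, a change of -0.62 ± 0.15 (adjusted p = 0.00281), and 11.74, 11.48 and 11.75 at 48 h, against 13.07, 13.23 and 12.81 (-1.38 ± 0.15, adjusted p = 1.3e-06). At the low dose of Ota at 24 h it changed by -0.50 ± 0.13 (adjusted p = 0.0141), a call lost without vehicle replicate 3 or low-dose replicate 1 or 2 (adjusted p 0.0515 to 0.0821). With replicate number as a block, low-dose Aa at 24 h also lowered it (-0.39, adjusted p = 0.0127, against 0.0713 without the block).

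CCNG2, the related cyclin G2, read 10.38, 10.36 and 10.44 with high-dose Aa at 24 h, against 11.05, 10.99 and 11.05 with vehicle, and 10.21, 9.75 and 10.05 at 48 h, against 11.48, 11.48 and 11.31. These are changes of -0.64 ± 0.13 (adjusted p = 6.0e-04) and -1.42 ± 0.13 (1.8e-07). Its high-dose Ota arrays read 10.36, 9.44 and 10.40 at 24 h, against 11.20, 11.01 and 11.24 (-1.09 ± 0.20, adjusted p = 2.2e-04), and 10.57, 10.28 and 10.14 at 72 h, against 11.58, 11.48 and 11.53 (-1.20 ± 0.20, 8.8e-05). All treated arrays lay below all vehicle arrays. Probe sets of CCNG2 did not move as one: 228081_at changed by 2.28 ± 0.20 with high-dose Aa at 24 h, 3.13 ± 0.18 with high-dose Ota at 24 h and 2.20 ± 0.18 at 72 h, all called higher, while 202770_s_at and 211559_s_at were called lower in all 4 high-dose comparisons. The same 228081_at was also called higher with each low dose, by 2.47 and 2.63 with Aa at 24 h and 48 h, and by 3.73 and 2.57 with Ota at 24 h and 72 h. The main set was also called lower with low-dose Aa at 24 h (-0.39 ± 0.13, adjusted p = 0.0326), lost without vehicle replicate 1, 2 or 3 or low-dose replicate 1 or 3 (0.0611 to 0.142).

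The polo-like kinases PLK2 and PLK3, which act at cell cycle checkpoints, parted. PLK2 fell with Aa at the low dose at both times (-0.98 ± 0.17 and -1.07 ± 0.17) and at the high dose at 24 h (-0.96 ± 0.17, adjusted p = 3.0e-04), whereas its change with high-dose Aa at 48 h was -0.08 ± 0.17. With high-dose Ota at 24 h it changed by -1.11 ± 0.36 (adjusted p = 0.0138), but the call was lost without vehicle replicate 1 (0.0635) or high-dose replicate 2 (0.07) and under a common median (-0.44). PLK3 rose by 1.32 ± 0.26 with high-dose Aa at 48 h (adjusted p = 3.9e-04), where it read 6.29, 6.20 and 5.63 against 5.00, 4.78 and 4.37 with vehicle.

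The feedback regulators of p53 gave no rise of MDM2, the ligase at the centre of the loop. MDM2 read 8.70, 8.92 and 8.45 with high-dose Aa at 24 h, against 8.50, 8.35 and 8.50 with vehicle, groups that overlapped (0.24 ± 0.15, adjusted p = 0.196). At 48 h it read 8.29, 7.76 and 7.89, against 8.61, 8.58 and 8.40, a change of -0.55 ± 0.15 (adjusted p = 0.00478) that lost its call when all 36 arrays were fitted together (0.074). High-dose Ota arrays at 24 h were at 6.85, 5.11 and 6.60, against 8.98, 8.45 and 8.61, a change of -2.49 ± 0.33 (adjusted p = 6.8e-06), or 5.63-fold lower. Replicate 2 was the lowest of the 3. At 72 h MDM2 was at 8.58, 8.02 and 8.39 with high-dose Ota, against 8.65, 8.94 and 8.98, and the change of -0.53 ± 0.33 was not called although every treated array was lower. None of the 4 low-dose changes, from -0.09 to -0.02, was called.

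PPM1D encodes the phosphatase that switches p53 signalling off. It rose with Aa at 24 h, by 1.07 ± 0.13 at the high dose (adjusted p = 1.1e-05) and by 0.61 ± 0.13 at the low dose (0.00373), and its high-dose change at 48 h, 0.21 ± 0.13, was not called. Low-dose Aa at 48 h gave 0.32, called with the replicate block (adjusted p = 0.0182, against 0.0729 without). With Ota its 4 changes lay between -0.00 and 0.21 as deposited and none was called. High-dose Ota at 24 h was called higher with quantile normalisation (0.40, adjusted p = 0.00903), with a common median (0.83, 2.3e-05) and without high-dose replicate 2 (0.35, 0.0215), and at 72 h with a common median (0.52, 0.00176). Its other set 230330_at was called higher with high-dose Ota at both times (1.39 ± 0.35 and 1.54 ± 0.35) and with neither low dose of Ota. That set was also called higher with both doses of Aa at both times. At 48 h its changes were 0.55 ± 0.23 at the high dose (adjusted p = 0.0482) and 0.66 ± 0.23 at the low dose (0.0374). TP53INP1, a stress protein of autophagy that also aids p53 phosphorylation, fell with high-dose Ota: 6.53, 5.35 and 6.86 at 24 h, against 8.66, 8.14 and 8.28 with vehicle (-2.11 ± 0.33, adjusted p = 3.9e-05). At 72 h it read 7.16, 6.16 and 6.96, against 8.60, 8.55 and 8.55 (-1.81 ± 0.33, 1.7e-04). Both calls held under all 3 scalings, with -1.26 at 24 h after quantile normalisation. High-dose Aa lowered it at 48 h, by -1.18 ± 0.25 (adjusted p = 7.4e-04), and its change at 24 h was -0.15 ± 0.25.

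ZMAT3, an RNA-binding zinc finger protein, was lower in every high-dose comparison. It read 8.05, 7.97 and 7.85 with high-dose Aa at 24 h, against 9.22, 9.08 and 8.92 with vehicle (-1.12 ± 0.20, adjusted p = 2.9e-04). At 48 h it read 8.34, 7.55 and 7.63, against 9.52, 9.34 and 9.03 (-1.46 ± 0.20, 1.5e-05). With high-dose Ota it was at 6.40, 4.76 and 6.65 at 24 h, against 9.29, 8.61 and 9.03 (-3.04 ± 0.35, adjusted p = 1.6e-06). At 72 h it had 7.71, 7.79 and 7.92, against 9.38, 9.28 and 9.47 (-1.57 ± 0.35, 9.5e-04). The groups never overlapped, and the Ota calls held under all 3 scalings. Low-dose Aa changed it by -0.74 ± 0.20 at 24 h and -0.70 ± 0.20 at 48 h, calls that were lost without vehicle replicate 1 or low-dose replicate 3 (adjusted p 0.0553 to 0.0705). Sets 1555609_a_at, 227221_at and 228315_at were called lower in every high-dose comparison. Set 225725_at was too, except with Aa at 24 h (-0.10 ± 0.24), and gave no call with low-dose Aa (-0.14 and -0.16). With low-dose Ota at 24 h it was called higher (0.59 ± 0.17, adjusted p = 0.0264) and 227221_at lower (-1.56 ± 0.30).

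**Figure D3:**
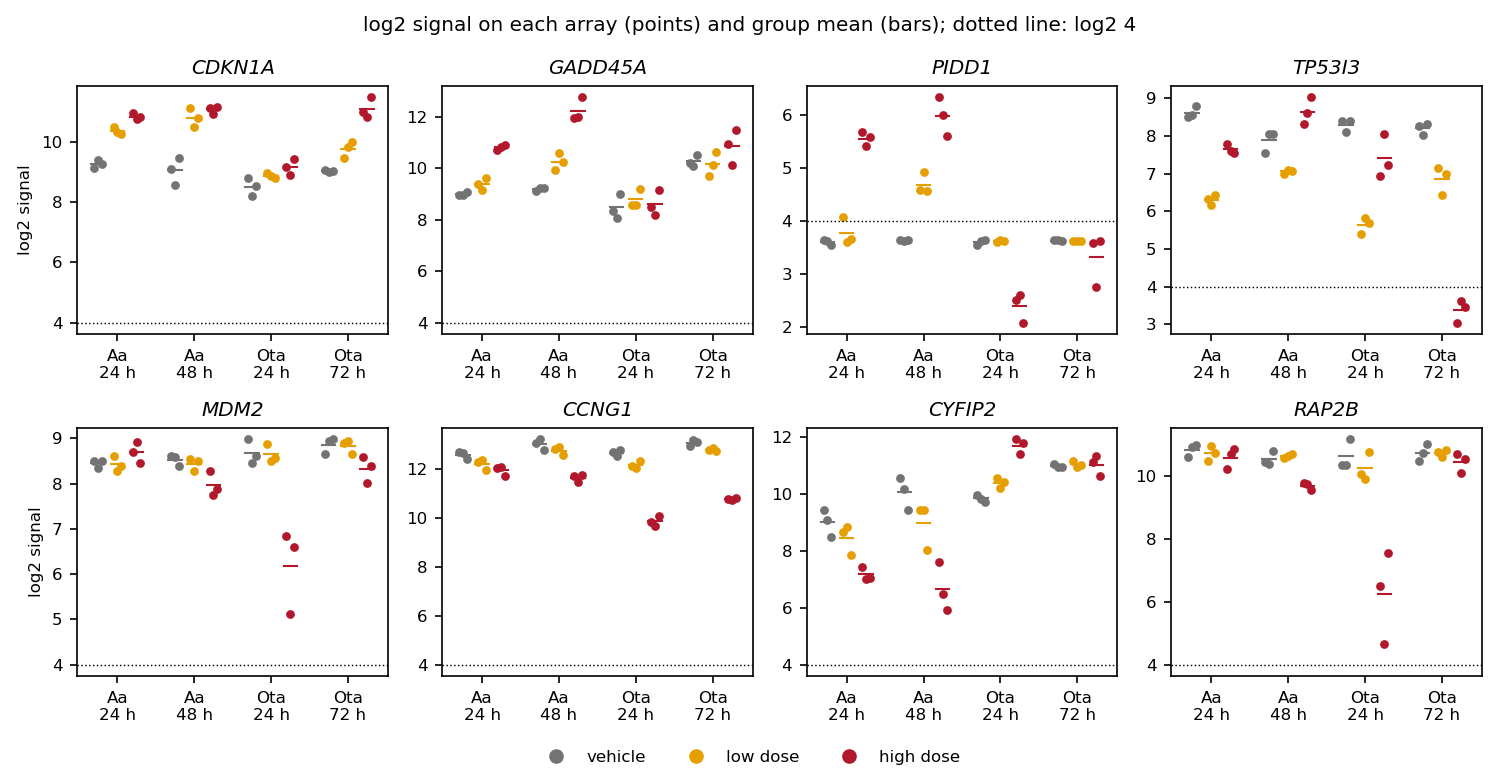
log2 signal on each array (points) and the mean of each group of 3 (bars) for 8 p53 targets, by compound and time, with vehicle, low and high dose from left to right. The dotted line is log2 4, under which values carry no order, as for all Ota points of PIDD1. TP53I3 is lowest at the low dose in 3 of the 4 sets and lies under the line at high-dose Ota at 72 h, and the RAP2B and MDM2 high-dose points at Ota 24 h spread more widely than in any other set shown.

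Among the cell death genes, PIDD1, a scaffold that activates caspase-2, was over log2 4 with Aa alone. It read 5.68, 5.42 and 5.59 with high-dose Aa at 24 h, against 3.65, 3.63 and 3.55 with vehicle, so at least 2.96-fold higher (measured means 5.56 and 3.61). At 48 h it read 6.34, 6.00 and 5.60, against 3.64, 3.62 and 3.64, at least 3.94-fold higher (means 5.98 and 3.63). The low dose at 48 h gave 4.58, 4.93 and 4.57, at least 1.62-fold over the same vehicle arrays. On Ota arrays it lay between 2.08 and 3.64, values under log2 4 that carry no order.

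AEN, a nuclease that acts in apoptosis, rose with both doses of Aa. It read 7.70, 7.69 and 7.56 with high-dose Aa at 24 h, against 6.62, 6.62 and 6.61 with vehicle (1.03 ± 0.14, adjusted p = 2.2e-05), and 7.68, 8.31 and 7.89 at 48 h, against 6.43, 6.45 and 6.59 (1.47 ± 0.14, 3.6e-07). The low dose added 0.68 ± 0.14 and 0.73 ± 0.14 at the 2 times. Under high-dose Ota it read 6.61, 6.61 and 6.31 at 24 h, against 6.60, 6.47 and 6.54, and 8.0, 7.10 and 8.16 at 72 h, against 6.61, 6.24 and 6.51 (1.30 ± 0.22, adjusted p = 9.8e-05). At 24 h the change of -0.02 ± 0.22 was not called as deposited, and it was 0.92 with quantile normalisation and 0.65 with a common median, both called higher.

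EI24, an endoplasmic reticulum protein of autophagy and cell death, changed by 0.40 ± 0.15 and 0.65 ± 0.15 with high-dose Aa at 24 h and 48 h, and by 0.69 ± 0.16 and 0.41 ± 0.16 with high-dose Ota at 24 h and 72 h (adjusted p = 0.0304, 0.00118, 0.00128 and 0.0345). All 4 were calls, but small ones. The first was lost without high-dose replicate 1 (0.155) or vehicle replicate 2 (0.135). The last was lost without vehicle replicate 1, 2 or 3 or high-dose replicate 1 (0.0594 to 0.145). Low-dose Aa at 48 h gave 0.25, called with the replicate block (0.0477, against 0.198 without). PERP, a desmosome protein linked to cell death, had 11.27, 11.13 and 11.36 with high-dose Ota at 24 h, against 10.44, 9.95 and 10.59 with vehicle (0.92 ± 0.16, adjusted p = 1.2e-04), and 10.86, 10.75 and 11.18 at 72 h, against 9.94, 9.74 and 9.93 (1.06 ± 0.16, 3.2e-05). It was called lower with Aa at 24 h, at the low dose (-0.55 ± 0.11, adjusted p = 0.00215) and at the high dose (-0.28 ± 0.11, 0.0439), where the second call was lost without any array but high-dose replicate 1 (0.0595 to 0.139). Its probe set 236009_at was called higher in both of these (1.41 ± 0.35 and 1.65 ± 0.35) and in all other high-dose comparisons, up to 6.94 ± 0.25 with high-dose Ota at 72 h.

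The death receptors FAS and TNFRSF10B were not called with high-dose Aa. With replicate number as a block, FAS was called lower there (-0.23, adjusted p = 0.0412, at 24 h and -0.21, 0.047, at 48 h, against 0.109 and 0.113 without). FAS fell with high-dose Ota at 24 h, where it read 7.75, 6.26 and 8.69 against 10.34, 10.01 and 10.68 with vehicle (-2.78 ± 0.42, adjusted p = 2.7e-05), and its change at 72 h was 0.15 ± 0.42. TNFRSF10B changed by -0.88 ± 0.23 at 24 h (adjusted p = 0.00323), a call absent under a common median (-0.21) and when only the 6 arrays compared were fitted (adjusted p = 0.0577), and by 0.29 ± 0.23 at 72 h. FAS was called higher with low-dose Aa at 48 h, 0.32 ± 0.11 (adjusted p = 0.0385), lost without vehicle replicate 1 or 2 or low-dose replicate 1, 2 or 3 (0.0593 to 0.155).

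APAF1, the core of the apoptosome, changed by -0.85 ± 0.11 with high-dose Aa at 48 h (adjusted p = 8.6e-06), by -0.29 with low-dose Aa at 48 h under the replicate block (0.0247, against 0.0544 without) and by 0.43 ± 0.18 with high-dose Ota at 72 h (0.0472), the last lost without vehicle replicate 3 (0.235) or high-dose replicate 2 (0.222) or 3 (0.0548). Low-dose Ota at 72 h gave 0.64 ± 0.18 (0.0211), lost without vehicle replicate 3 or low-dose replicate 1 (0.0995 and 0.118). TRIAP1, an inhibitor of apoptosome assembly, changed by 0.39 ± 0.10 and 0.26 ± 0.10 with high-dose Aa at 24 h and 48 h (adjusted p = 0.00378 and 0.0308), and by -1.67 ± 0.21 and -1.15 ± 0.21 with high-dose Ota at 24 h and 72 h (5.7e-06 and 2.2e-04). The Ota calls held under all 3 scalings, whereas the Aa call at 48 h was lost without vehicle replicate 2 or 3 or high-dose replicate 2 or 3 (0.0678 to 0.103). Both Aa calls were lost when all 36 arrays were fitted together (0.0615 and 0.194), and the second when only the 6 arrays compared were fitted (0.0924). Low-dose Ota at 24 h gave -0.68 ± 0.21 (adjusted p = 0.0446), lost without any array but low-dose replicate 3 (0.0707 to 0.2). PHLDA3, which blocks AKT at the membrane, rose with high-dose Aa at 24 h, reading 6.89, 6.22 and 6.41 against 5.57, 5.24 and 5.64 (1.02 ± 0.23, adjusted p = 0.00189). High-dose Ota changed it by -0.91 ± 0.18 at 24 h and -0.78 ± 0.18 at 72 h, calls that ended under quantile normalisation (-0.24 and -0.37), and at 72 h its set 235534_at was called the other way (0.87 ± 0.34).

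TP53I3, an oxidoreductase linked to reactive oxygen, was the only member called lower with every low dose. It read 6.32, 6.16 and 6.43 with low-dose Aa at 24 h and 7.79, 7.59 and 7.56 with the high dose, against 8.50, 8.55 and 8.81 with vehicle. At 48 h it read 7.00, 7.10 and 7.07 with the low dose and 8.32, 8.61 and 9.03 with the high dose, against 7.56, 8.05 and 8.05. The low dose thus stood below vehicle on every array, and the high dose below it at 24 h and above it at 48 h. The changes were -2.32 ± 0.17 (adjusted p = 6.2e-07) and -0.97 ± 0.17 (2.2e-04) at 24 h, low then high dose, and -0.83 ± 0.17 (0.0016) and 0.77 ± 0.17 (0.00104) at 48 h.

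With Ota, TP53I3 read 5.39, 5.81 and 5.68 at the low dose and 6.95, 8.05 and 7.23 at the high dose at 24 h, against 8.39, 8.10 and 8.41 with vehicle. At 72 h it read 7.15, 6.43 and 6.99 at the low dose and 3.04, 3.62 and 3.47 at the high dose, against 8.28, 8.03 and 8.32. The order of the 2 doses was thus turned round between the times. The low-dose changes were -2.67 ± 0.25 (adjusted p = 6.0e-06) and -1.35 ± 0.25 (0.00194). At 24 h the high-dose change was -0.89 ± 0.25 (0.00633), not called under either other scaling (-0.21 and -0.22). At 72 h the high dose was at least 18.5-fold lower than vehicle (adjusted p = 5.9e-10; measured means 3.38 and 8.21).

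None of the other metabolic and repair members changed as much as TP53I3 did with high-dose Ota at 72 h. SESN1, a sestrin that restrains mTORC1, rose with high-dose Aa at 24 h (7.03, 7.13 and 6.96, against 6.47, 6.48 and 6.39; 0.59 ± 0.16, adjusted p = 0.00588) and fell at 48 h (6.09, 5.83 and 5.57, against 6.45, 6.51 and 6.46; -0.65 ± 0.16, 0.00229). RRM2B, the p53-inducible ribonucleotide reductase subunit, read 9.27, 8.58 and 9.15 with high-dose Ota at 24 h, against 8.18, 7.76 and 8.43 with vehicle (0.88 ± 0.23, adjusted p = 0.00325), and 8.81, 9.16 and 8.42 at 72 h, against 8.12, 8.12 and 8.45 (0.57 ± 0.23, 0.0408). The groups overlapped at 72 h, and that call was lost without vehicle replicate 1 or 2 or high-dose replicate 1 or 2 (0.0838 to 0.182). High-dose Aa gave 0.34 ± 0.13 at 24 h (0.0429) and -0.44 ± 0.13 at 48 h (0.00916). The first of these was lost without vehicle replicate 1 or 2 or high-dose replicate 1 or 2 (0.0791 to 0.189).

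TIGAR, a fructose bisphosphatase that lowers glycolysis, read 6.75, 6.34 and 7.61 with high-dose Ota at 24 h, against 9.31, 9.00 and 9.37 with vehicle (-2.33 ± 0.26, adjusted p = 1.4e-06), and 9.78, 9.37 and 9.76 at 72 h, against 8.72, 8.63 and 8.91 (0.89 ± 0.26, 0.00814). It thus lay below vehicle at 24 h and above it at 72 h. With Aa it was called under the replicate block alone, at -0.25 with the high dose at 24 h (adjusted p = 0.0233) and 0.31 at 48 h (0.00543), and at -0.31 with the low dose at 24 h (0.0129). DRAM1, a lysosomal protein of autophagy, changed by -1.56 ± 0.24 with high-dose Ota at 72 h (adjusted p = 3.8e-05), and by -0.75 ± 0.24 at 24 h (0.0124), a call lost without vehicle replicate 1 (0.0564) or high-dose replicate 2 (0.054) and under both other scalings. With Aa at 48 h it was higher at the low dose (0.45 ± 0.14, adjusted p = 0.0205) and lower at the high dose (-0.34 ± 0.14, 0.0472). These were lost without low-dose replicate 1 or vehicle replicate 3 (0.064 and 0.0838), and without vehicle replicate 1 or 2 or high-dose replicate 1 or 3 (0.0831 to 0.214). RPS27L, a ribosomal protein paralogue, changed by -0.88 ± 0.26 and -1.26 ± 0.26 with high-dose Ota at 24 h and 72 h (adjusted p = 0.00712 and 4.7e-04), the first not called under a common median (-0.21). Neither was called with the mean of its probe sets (-0.40 and -0.59), and its sets 222487_s_at (0.19 and -0.22) and 238935_at (-0.53 and -0.29) gave no call. Low-dose Aa gave it -0.37 ± 0.10 at 24 h (0.0179), lost without vehicle replicate 1 or 2 or low-dose replicate 1 or 3 (0.0537 to 0.0793).

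LIF encodes a cytokine of the interleukin-6 family and rose in all 4 high-dose comparisons. It read 8.39, 8.21 and 8.28 with high-dose Aa at 24 h, against 7.43, 7.43 and 7.78 with vehicle (0.75 ± 0.18, adjusted p = 0.00284), and 8.92, 9.01 and 8.82 at 48 h, against 7.03, 6.60 and 7.45 (1.89 ± 0.18, 3.7e-07). Its high-dose Ota arrays read 7.84, 7.70 and 7.71 at 24 h, against 7.14, 6.94 and 7.25 (0.64 ± 0.25, adjusted p = 0.0357), and 8.06, 8.14 and 8.99 at 72 h, against 7.18, 6.54 and 7.08 (1.46 ± 0.25, 1.0e-04). No groups overlapped. The Ota call at 24 h was lost without any array but vehicle replicate 3 (0.0535 to 0.108), and its size was 1.32 and 1.31 under the other scalings. Low-dose Aa raised it by 1.24 ± 0.18 at 48 h (adjusted p = 1.1e-04), and at 24 h by 0.46 with the replicate block (0.0298, against 0.0763 without).

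RAP2B, a small GTPase of the Ras family, had the largest fall of any member at 24 h with Ota. High-dose arrays read 6.50, 4.66 and 7.53, against 10.35, 10.34 and 11.15 with vehicle, a change of -4.39 ± 0.50 (adjusted p = 1.4e-06), or 20.9-fold lower. Replicate 2, the array with the lowest median of all, was the lowest here too, and the groups did not overlap. At 72 h it read 10.68, 10.07 and 10.53, against 10.45, 10.70 and 10.99, which was not called (-0.28 ± 0.50). High-dose Aa changed it by -0.25 ± 0.17 at 24 h and by -0.85 ± 0.17 at 48 h (adjusted p = 4.1e-04), the second lost when all 36 arrays were fitted together (0.0587).

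CYFIP2, a subunit of the actin-regulating WAVE complex, was called lower with high-dose Aa and higher with high-dose Ota at 24 h. It read 7.43, 7.01 and 7.06 with high-dose Aa at 24 h, against 9.44, 9.10 and 8.47 with vehicle (-1.84 ± 0.46, adjusted p = 0.00359), and 7.62, 6.48 and 5.93 at 48 h, against 10.56, 10.18 and 9.43 (-3.38 ± 0.46, 1.2e-05). With high-dose Ota it read 11.92, 11.39 and 11.79 at 24 h, against 9.98, 9.83 and 9.73 (1.85 ± 0.17, adjusted p = 1.9e-07), and 11.11, 11.34 and 10.64 at 72 h, against 11.04, 10.94 and 10.93 (0.06 ± 0.17, not called). That last change was called higher with a common median (0.40, adjusted p = 0.0327), with the mean of its probe sets (0.58, 0.02) and on its set 220999_s_at (1.09 ± 0.26, 0.00174). All treated arrays lay on 1 side of vehicle except at 72 h. Low-dose Ota at 24 h gave 0.55 ± 0.17 (adjusted p = 0.0454), lost without any 1 of the 6 arrays (0.0546 to 0.155), and low-dose Aa at 48 h gave -1.09, called with the replicate block (0.00226, against 0.0748 without). Its vehicle level was higher at 72 h than at 24 h in the Ota series, by 1.12 ± 0.17 (adjusted p = 1.8e-04).

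GDF15, a stress cytokine, had its rule-chosen set 229868_s_at between 2.47 and 2.88 on all 36 arrays. Its set 221577_x_at, used here after its values were seen and open to cross-hybridisation, read 11.07, 11.05 and 10.49 with high-dose Aa at 24 h, against 9.90, 10.33 and 10.20 with vehicle (0.72 ± 0.20, adjusted p = 0.00759), and 12.19, 12.13 and 11.80 at 48 h, against 11.10, 10.57 and 11.20 (1.08 ± 0.20, 2.5e-04). With high-dose Ota it read 11.57, 11.03 and 11.77 at 24 h, against 10.06, 10.09 and 9.85 (1.46 ± 0.32, 9.0e-04), and 13.19, 12.81 and 14.06 at 72 h, against 12.15, 11.62 and 12.69 (1.20 ± 0.32, 0.00408). Every high-dose array lay above every vehicle array of its compound and time on this set. At the low dose it was called higher only with Aa at 48 h (0.79 ± 0.20, adjusted p = 0.00689). The low-dose Ota arrays at 72 h overlapped vehicle (0.85 ± 0.32, not called). Its vehicle level was higher at 72 h than at 24 h in the Ota series, by 2.16 ± 0.32 (adjusted p = 1.2e-04). GDF15 is not counted among the members tested.

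Between the doses, members were called in either direction in 6 of 28 cases with Aa at 24 h (27.1% of all genes were), 20 of 28 at 48 h (46.5%), 16 of 27 with Ota at 24 h (58.1%) and 15 of 27 at 72 h (58.4%). The counts for Aa include PIDD1. With replicate number as a block the first of these became 13, the second 23. The genes called over the array went from 1878 higher and 1092 lower to 2777 and 1776 at 24 h. At 48 h they went from 2298 and 2809 to 2981 and 3464. Besides those given below, the block added AEN (0.36), EI24 (0.34), PERP (0.27), TRIAP1 (0.23) and ZMAT3 (-0.37) at 24 h, and PERP (0.24), PHLDA3 (-0.44) and TIGAR (0.28) at 48 h. GADD45A was higher at the high than at the low dose of Aa at 24 h, by 1.44 ± 0.20 (adjusted p = 9.6e-05). PIDD1 differed there by 1.78, or 1.54 with values under log2 4 set to 4, as 1 of its 3 low-dose arrays lay over log2 4. CDKN1A was not called between the doses of Aa (0.47 ± 0.19 and 0.27 ± 0.19 at 24 h and 48 h), although the first difference was called with the replicate block (0.0397, against 0.0775 without). It was called between those of Ota at 72 h (1.33 ± 0.20, adjusted p = 3.1e-05). CYFIP2 was called lower at the high dose of Aa at 24 h with the block (-1.28, adjusted p = 0.00103). TP53I3 was higher at the high than at the low dose in 3 sets, by 1.34 ± 0.17 and 1.59 ± 0.17 with Aa at 24 h and 48 h and 1.79 ± 0.25 with Ota at 24 h (5.0e-05, 5.4e-06 and 2.3e-05). With Ota at 72 h it was at least 7.26-fold lower at the high dose (adjusted p = 3.0e-08; means 3.38 and 6.86).

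Between the times, the high-dose effect of Aa differed at 48 h from that at 24 h for 13 of 28 members (20.7% of all genes), in a test of the difference of the 2 changes. The difference, 48 h minus 24 h, was positive for TP53I3 (1.74 ± 0.24, adjusted p = 4.0e-04), whose own changes were -0.97 and 0.77 at 24 h and 48 h, and for PLK3 (1.33 ± 0.37, 0.0205) and GADD45A (1.24 ± 0.28, 0.00677), and negative for SESN1 (-1.24 ± 0.23, 0.00224), PHLDA3 (-1.08 ± 0.33, 0.032) and PPM1D (-0.86 ± 0.19, 0.00626). The PHLDA3 call was lost without high-dose 24 h replicate 1, high-dose 48 h replicate 3, vehicle 24 h replicate 2 or vehicle 48 h replicate 1, 2 or 3 (0.0516 to 0.076). With the replicate block 19 members differed, the added ones being CYFIP2 (-1.54, adjusted p = 0.00369), TP53INP1 (-1.02, 0.0035), RAP2B (-0.60, 0.0293), DRAM1 (-0.38, 0.0318), PERP (0.44, 0.0141) and TIGAR (0.56, 0.00345). Over the whole array the block took the genes called from 783 higher and 1493 lower to 1700 and 2604. The CDKN1A difference, 0.45 ± 0.27, was not called. The vehicle groups of Aa differed little between the times: 1 of 28 members (1.29% of all genes), TP53I3, was called (-0.73 ± 0.17, adjusted p = 0.0495), and with the replicate block CCNG1 (0.44), CCNG2 (0.39), CYFIP2 (1.05), LIF (-0.52) and TIGAR (-0.49) were too. That 1 call was lost without vehicle 24 h replicate 1, 2 or 3 or vehicle 48 h replicate 1 or 2 (0.0849 to 0.221). For these vehicle groups the block took the genes called over the array from 62 higher and 80 lower to 780 and 1012.

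The high-dose effect of Ota at 72 h differed from that at 24 h for 12 of 27 members (53.8% of all genes), fewer than the share over the array. It was higher at 72 h for RAP2B (4.10 ± 0.70, adjusted p = 1.8e-04), TIGAR (3.21 ± 0.37, 5.5e-06) and FAS (2.93 ± 0.59, 6.7e-04), all deep in their falls at 24 h. CDKN1A (1.40 ± 0.28, 5.7e-04) and AEN (1.33 ± 0.31, 0.00236) were also called higher. The effect was lower for TP53I3 (-3.94 ± 0.36, 6.6e-07, or -3.32 ± 0.33 with values under log2 4 set to 4) and CYFIP2 (-1.79 ± 0.25, 2.5e-05), the only 2 called in that direction. The vehicle groups of Ota differed between the times for 6 of 27 members (29.8% of all genes). GADD45A, TNFRSF10B (1.12 ± 0.23), CYFIP2 and CCNG1 (0.40 ± 0.13) were higher at 72 h, and APAF1 (-0.91 ± 0.18) and PERP (-0.46 ± 0.16) were lower. The CCNG1 and PERP calls were lost without any of 4 and 5 arrays (adjusted p 0.0581 to 0.104 and 0.0689 to 0.18).

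**Figure D4:**
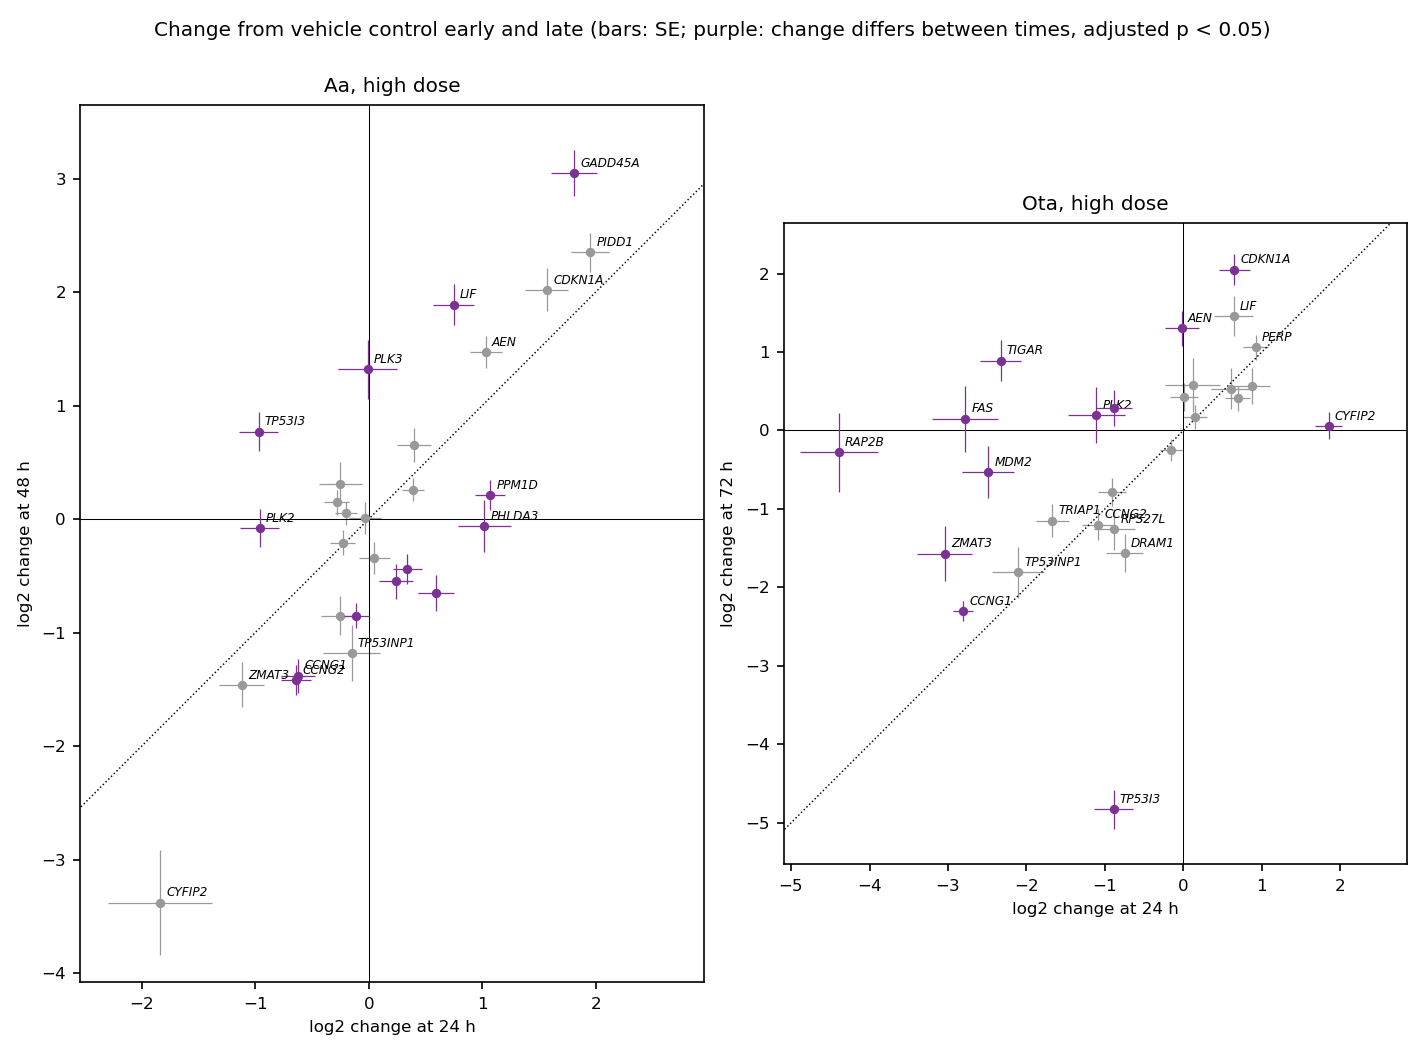
log2 change from vehicle with the high dose at the later time (vertical axis) against that at 24 h (horizontal axis) for each tested p53 target, Aa left and Ota right. Bars are SE, the dotted line marks equal changes, purple marks an adjusted p under 0.05 for the difference between the times, and names are given where either change is over 0.95 in size. TP53I3 lies above the line with Aa and far below it with Ota, where its 72 h point rests on signals under log2 4.

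At 24 h, the time the compounds share, the high-dose effects of Ota and Aa differed for 20 of 28 members (59.4% of all genes). Of these, 2 were higher with Ota and 18 lower, beside 18.7% and 40.7% of all genes, and the 18 include PIDD1. Compound and experiment cannot be told apart here, since each compound had vehicle arrays of its own. The effect of Ota was the higher one for CYFIP2 (3.69 ± 0.51, adjusted p = 4.7e-07) and PERP (1.21 ± 0.19, 5.4e-06). It was the lower one for RAP2B (-4.14 ± 0.54, 2.4e-07), MDM2 (-2.74 ± 0.37, 3.9e-07) and PIDD1 (-3.15 ± 0.26), the last of which is -1.56 ± 0.16 with values under log2 4 set to 4 and rests on a gene tested only through treated Aa arrays. With quantile normalisation 7 were higher and 14 lower, beside 32% and 29.2% of all genes. With a common median 7 and 11 were, beside 44.4% and 24.1%. The difference for CDKN1A was -0.92 ± 0.28 (adjusted p = 0.00573), not called with quantile normalisation (-0.60, 0.0597) or a common median (-0.17, 0.577), for GADD45A -1.68 ± 0.42 (0.00107) and for LIF -0.11 ± 0.32 (not called).

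**Figure D5:**
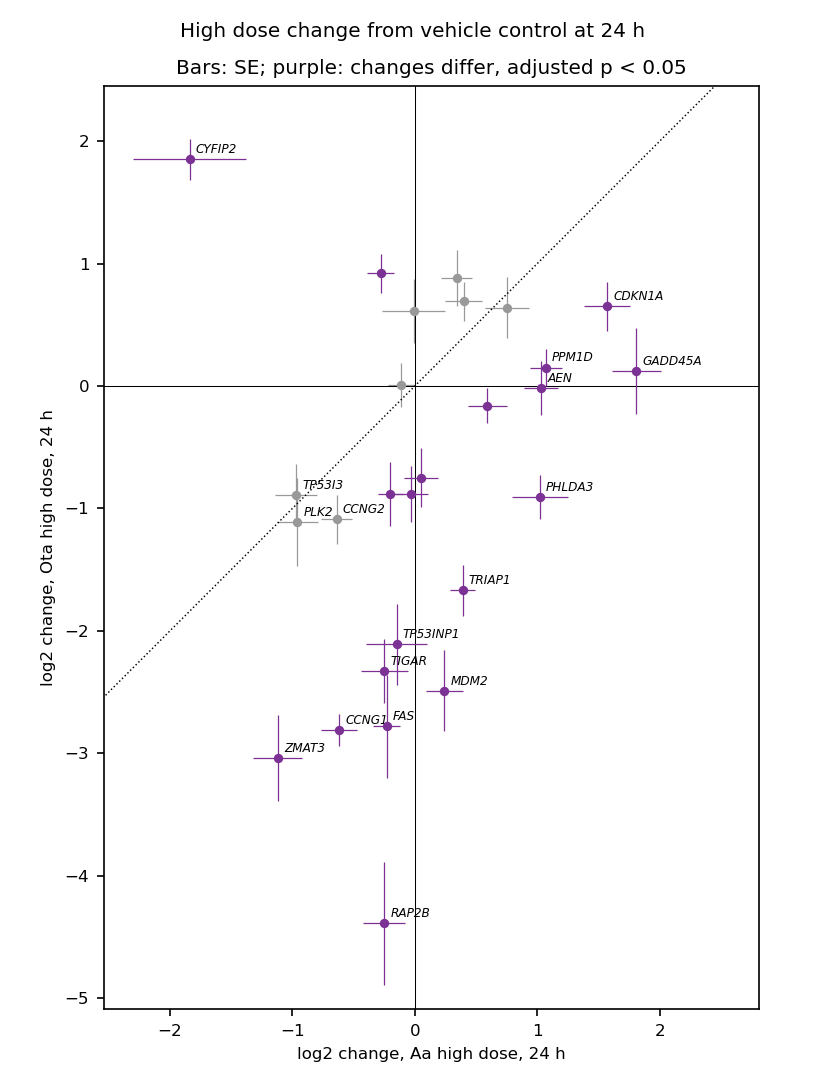
log2 change from vehicle at 24 h with high-dose Ota (vertical axis) against high-dose Aa (horizontal axis) for the 27 p53 targets tested in both. Bars are SE, the dotted line marks equal changes, and purple marks an adjusted p under 0.05 for the difference, and names are given where either change is over 0.95 in size. Most purple points lie below the line, RAP2B lowest, and CYFIP2 stands alone at the upper left.

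Of 45 further p53 targets outside the 32, 15 of 38 tested were called higher and 3 lower with high-dose Aa at 24 h, where 27.4% and 24% of all genes were, and 22 and 5 at 48 h, beside 30.9% and 35.1%. With high-dose Ota, 10 of 37 were higher and 16 lower at 24 h, beside 21.6% and 42.4%, and 10 and 12 at 72 h, beside 26.3% and 37%. ATF3, a stress-induced transcription factor that is also an ATF4 target, was the most changed with Aa. It read 10.23, 9.85 and 9.92 with high-dose Aa at 24 h, against 4.31, 4.36 and 5.14 with vehicle (5.40 ± 0.40, adjusted p = 1.0e-07), and it rose by 6.90 ± 0.40 at 48 h (4.6e-09). With high-dose Ota ATF3 rose at 24 h (4.01 ± 0.40, 3.3e-07) and was lower at 72 h (-1.0 ± 0.40, 0.0366), where its vehicle arrays themselves read 9.56, 9.61 and 10.07. SERTAD1, a CDK4-binding protein, rose by 2.45 ± 0.29 and 4.56 ± 0.29 with high-dose Aa. POLH, the translesion polymerase eta, was at least 9.66-fold lower with high-dose Ota at 24 h (adjusted p = 1.9e-10; means 3.53 and 7.27). CES2, a carboxylesterase, and FBXO22, a ubiquitin ligase subunit, led the falls at 72 h (-2.87 ± 0.20 and -2.87 ± 0.17).

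Among 22 tested regulators and partners of p53, high-dose Aa called 9 higher and 2 lower at 24 h (27.4% and 24% of all genes) and 5 and 7 at 48 h (30.9% and 35.1%). High-dose Ota called 3 higher and 11 lower at 24 h (21.6% and 42.4%) and 9 and 6 at 72 h (26.3% and 37%). RFWD3, a ubiquitin ligase that stabilises p53, rose by 1.80 ± 0.15 and 2.38 ± 0.15 with Aa, and the checkpoint adaptor MDC1 by 1.35 ± 0.21 and 2.19 ± 0.21. With high-dose Ota the checkpoint kinase CHEK1 fell by 4.60 and the nuclear body gene PML by 3.08 on the log2 scale at 24 h (adjusted p = 7.0e-10 and 5.7e-07). CDKN2A, the locus of p16 and the MDM2 inhibitor ARF, rose by 1.74 ± 0.11 at 72 h, and MDM4, the partner of MDM2, changed by -1.72 ± 0.15 (adjusted p = 2.9e-09 and 8.8e-08).

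Cell cycle genes that p21 is known to lower through the DREAM complex gave 4 higher and 8 lower of 23 with high-dose Aa at 24 h (27.4% and 24% of all genes) and 11 and 5 at 48 h (30.9% and 35.1%). High-dose Ota gave 0 higher and 15 lower at 24 h (21.6% and 42.4%) and 16 and 3 at 72 h (26.3% and 37%). Low-dose Aa gave 5 higher and 6 lower at 24 h (11.6% and 13.5%) and 17 and 1 at 48 h (18.8% and 19.1%), and low-dose Ota 0 and 2 at 24 h (4.66% and 10%) and 14 and 0 at 72 h (9.79% and 7.28%). At 24 h with Ota, CHEK1 and cyclin B1 (CCNB1, -3.64 ± 0.25, adjusted p = 6.0e-09) led the falls. At 72 h CDC25A and FOXM1 were higher, by 1.87 ± 0.25 and 1.73 ± 0.15 (7.5e-06 and 7.5e-08). With Aa, E2F1 changed by 1.52 ± 0.21 and 2.29 ± 0.21, CCNB1 by -1.44 ± 0.13 at 24 h and CDC25A by 1.82 ± 0.16 at 48 h, all called.

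The ATF4 route, which reaches some of the same targets, was read from 10 genes. High-dose Aa gave 6 higher and 3 lower at 24 h (27.4% and 24% of all genes) and 5 and 4 at 48 h (30.9% and 35.1%). High-dose Ota gave 3 and 5 at 24 h (21.6% and 42.4%) and 1 and 9 at 72 h (26.3% and 37%). STC2, a secreted stress glycoprotein, was called higher throughout, from 2.94 ± 0.38 with Ota at 72 h to 4.49 ± 0.38 with Ota at 24 h. DDIT4, an inhibitor of mTORC1, was called lower throughout, from -1.48 ± 0.26 with Aa at 24 h to -4.13 ± 0.14 with Ota at 24 h. DDIT3, which encodes CHOP, fell by 4.17 on the log2 scale with Ota at 72 h (adjusted p = 1.1e-06). The part of these genes in the changes of the p53 targets was not tested.

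Other probe sets bear on how far a member can be read. In the 8 dose comparisons, 15 members had another tested set, which gave 116 pairs of member and comparison, and in 7 pairs a set was called against the one used: 4 of CCNG2, 2 of PERP and 1 of PHLDA3. The ACTB probe sets, which run from 3′ to 5′ of the transcript, differed by 1.88 ± 0.37 log2 with high-dose Ota at 72 h, against 1.29 ± 0.15 with vehicle, and by 1.25 ± 0.30 with high-dose Aa at 48 h, against 0.86 ± 0.22 (SD, n = 3), a sign of RNA state whose part in the results was not tested.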

How the data were processed

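The deposited values are log2 signals made with GCRMA, per the submitters' processing notes; its version is not given in the sources used here. One table holds 54675 probe sets on 36 arrays, with values from 0.844 to 16.09. Probe sets were named from the platform annotation; 41091 had 1 symbol. The members and gene lists were chosen with earlier results of these data known. Each compound's 18 arrays were fitted as group means in limma 3.58.1 (R 4.3.3; lmFit, eBayes, 12 residual degrees of freedom), and the compounds were compared in a fit of all 36. Genes needed a signal over log2 4 on at least 3 arrays; p-values were adjusted by Benjamini-Hochberg over all genes tested, and 0.05 was the threshold. Folds against a group wholly at or under log2 4 use 4 as its level and read "at least". Every member is named; arrays are given for fixed genes and for the 3 most changed each way per high-dose comparison, and each further list names its 2 most changed called genes. Same-numbered Aa arrays deviated together (45 of 45 pairs, r 0.189 to 0.595), so a replicate block is given for Aa where it changes a call. For Ota the counts with the block are given. The test was checked on simulated data. The number of arrays limits the precision. No arrays held identical values.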

Additional observations from a re-analysis of the deposited data

Results flagged for a closer look

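3 sets of results are listed here because the effect of a high dose differed between times or compounds by a direct test of the difference (limma, adjusted p under 0.05). Of all genes tested, 20.7% differed between the times of Aa, 53.8% between those of Ota and 59.4% between the compounds. The members called were 46.4%, 44.4% and 71.4%, so with Ota over time they fell short of the array. With Aa, 13 members changed differently at 48 h than at 24 h, by 1.74 log2 for TP53I3, 1.33 for PLK3, 1.24 for GADD45A, -0.86 for PPM1D, -1.08 for PHLDA3 and -1.24 for SESN1. With Ota, 12 members changed differently at 72 h than at 24 h, by 4.10 for RAP2B, 3.21 for TIGAR, 2.93 for FAS, -1.79 for CYFIP2 and -3.94 for TP53I3 (-3.32 with values under log2 4 set to 4). Between the compounds at 24 h, 20 members differed, with Ota minus Aa at 3.69 for CYFIP2, 1.21 for PERP, -2.74 for MDM2, -3.15 for PIDD1 (-1.56 with values under log2 4 set to 4) and -4.14 for RAP2B. Of these, PIDD1 passed the filter only through treated Aa arrays and lay under log2 4 on all Ota arrays. It had to differ, so its value is not a test result. Groups of 3 arrays are too small for a check on outlying samples.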

How the results depend on the processing

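Leaving out 1 array at a time, the members called ranged from 15 to 17 with high-dose Aa at 24 h, 18 to 20 at 48 h, 18 to 21 with high-dose Ota at 24 h and 15 to 16 at 72 h. They ranged from 6 to 9 and 8 to 10 with low-dose Aa at 24 h and 48 h, and from 1 to 3 and 1 to 2 with low-dose Ota at 24 h and 72 h. Between doses the ranges were 4 to 8 and 18 to 20 with Aa, and 16 to 18 and 13 to 15 with Ota. For the time effects they were 10 to 16 with Aa and 10 to 13 with Ota, for vehicle over time 0 to 2 and 4 to 6, and for Ota against Aa 18 to 20. Among these 3306 values, no change that was called with or without the array left out turned its direction. Changes called in neither fit were not checked for direction. Low-dose Ota at 24 h gave 2 calls with no filter. Low-dose Ota at 72 h gave 5 with the mean of probe sets and 5 with only the 6 arrays compared. The doses of Aa at 24 h gave 13 with the replicate block. Vehicle over time in Aa gave 0 under quantile normalisation, a common median, no filter or a fit of all 36 arrays, and 6 with the block. The block lost no call of a member, and it raised the calls over all genes too, as given above for Aa.

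Among changes called before or after a change of setting, directions turned as follows, and the cause was not tested. With the mean of probe sets, CCNG2 read 0.22 and 0.45 with low-dose Aa at 24 h and 48 h, 0.05 with high-dose Ota at 24 h and 0.65 with low-dose Ota at 72 h. PERP read 0.40 with high-dose Aa at 24 h, 0.18 and 0.60 with low-dose Aa at 24 h and 48 h, and 1.51 with low-dose Ota at 24 h. PHLDA3 read 0.04 with high-dose Ota at 72 h, PLK3 -0.03 and PPM1D 0.58 between the doses of Ota at 72 h, and RPS27L 0.05 for Ota against Aa. With a common median PPM1D read 0.33 in that dose comparison, RPS27L 0.07 for Ota against Aa, and AEN 0.65 and SESN1 0.51 with high-dose Ota at 24 h. With quantile normalisation AEN read 0.92 and SESN1 0.79 there, and SESN1 0.49 between the doses of Ota at 24 h and 0.19 for Ota against Aa. For the doses of Ota at 24 h the members split 11 to 10 and 11 to 9 under quantile normalisation and a common median, against 6 to 10, and at 72 h 10 to 8 and 12 to 9, against 6 to 9. Of all genes, 34.5% and 27.9%, and 45.2% and 23.6%, were called higher and lower at 24 h, against 19.4% and 38.7%. At 72 h these shares were 33.7% and 27.5%, and 38.8% and 24.4%, against 21.7% and 36.7%.

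Same-numbered Ota arrays deviated together in 24 of 45 pairs (median r 0.11, lowest -0.074). Still, 17 of 18 Ota arrays correlated best with their own number (median r -0.067 with other numbers), so pairing there was not settled. With replicate number as a block, the members called with Ota at 72 h were 18 at the high and 4 at the low dose, against 17 and 3. At 24 h they stayed at 21 and 4. Between the doses they were 19 and 17 at 24 h and 72 h, against 16 and 15. For the time effect they were 14, against 12, and for vehicle over time 8, against 6. Calls over the array rose with the block here too. For the time effect they went from 3642 higher and 2297 lower to 3727 and 2394. Between the doses at 24 h they went from 2144 and 4269 to 2230 and 4345. With 3 arrays a group the precision is limited, and signals at or under log2 4 carry no order.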
